A study of Homo sapiens with 23 samples.

Results

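The suppressor of cytokine signalling (SOCS) family holds 8 genes, SOCS1 to SOCS7 and CISH, and their expression was measured on bead arrays of CCL-75, a cell line of fibroblasts from human lung. Members were taken as every array probe annotated to one of these genes, 15 of the 21332 probes with 1 gene symbol. A probe was kept when its detection p, the scanner's comparison with negative control beads, was under 0.05 on at least 3 arrays. This left 13 probes and all 8 members among 12994 tested genes.

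The 23 arrays fall into 6 groups of cultures, all of this 1 line. Control cells had neither cytokine nor antibody, and IL13 cells received IL-13 for 20 hours. Pre_only cells received TNF and IL-17 for 72 hours, and Pre_IL13 cells received IL-13 for 20 hours after that pretreatment and a wash. Pre_Ab_only and Pre_Ab_IL13 cells had the same pretreatment with a neutralising antibody to IL-13Ra2 in its last 1 hour, and only the latter then received IL-13. Each array is named by passage (6 or 8) and experiment (A or B), as in P6-A. Every group has 4 arrays except Pre_only, which has 3 and only 1 of passage 8. The labels call A and B technical replicates and the design text calls them independent experiments and the passages biological replicates, so p-values measure the spread between arrays of 1 line, which may in part be technical. Each passage had its own beadchip, and passage and beadchip cannot be told apart.

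The number of detected probes ran from 17818 to 20167, and all 10 fibroblast markers checked, among them COL1A1 and VIM, were detected on all 23. Of the 4 measured epithelial markers, EPCAM and KRT8 were detected on 2 arrays each, KRT18 on 3 and KRT19 on 23. Of the 3 endothelial ones, PECAM1 was detected on 1 array, VWF on 17 and TEK on 23. Of the 8 leukocyte markers, CD14, LYZ and CD68 had a named probe and were detected on all 23 arrays. The mean of these 3 was 7.39 to 8.06 on the arrays without pretreatment and 8.14 to 8.77 on those with it. The mean of the fibroblast markers ran from 11.51 to 11.98 without pretreatment and from 11.78 to 12.18 with it. The mean of the epithelial markers ran from 5.54 to 5.75 without pretreatment and from 4.84 to 5.28 with it. The part of these markers in the values below was not tested, and in such bulk RNA fewer cells of a type and less RNA per cell cannot be told apart. Level means log2 normalised intensity throughout, and levels of different probes are not compared with each other.

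Receptors for many cytokines signal through JAK kinases, which phosphorylate STAT transcription factors. IL-13 acts through a receptor of IL-13Ra1 and the IL-4 receptor chain and mainly through STAT6, while IL-13Ra2 is a second, high-affinity IL-13 receptor long described as a decoy. SOCS proteins carry an SH2 domain, which binds phosphorylated tyrosine, and a SOCS box, which recruits elongins and a cullin ubiquitin ligase. Several of them are transcribed in response to the STATs they restrain and so form a negative feedback loop. SOCS1 and SOCS3 also inhibit JAK kinase activity directly, and SOCS1 is known to restrain responses to interferon, IL-4 and IL-13. CISH and SOCS2 are best known as targets of STAT5.

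SOCS1 and CISH were the members that rose with IL-13, and their upstream sequences are shown for that reason. RefSeq promoter entries (assembly GRCh38.p14) were at hand for 5 of the 8 members. The 250 bases before the annotated start are given 5′ to 3′ on the gene's strand, with motif matches in capitals. For SOCS1 they lie at chr16:11256205-11256454, minus strand, with 74.0% G and C. For CISH they lie at chr3:50611775-50612024, minus strand, with 68.8% G and C.
SOCS1: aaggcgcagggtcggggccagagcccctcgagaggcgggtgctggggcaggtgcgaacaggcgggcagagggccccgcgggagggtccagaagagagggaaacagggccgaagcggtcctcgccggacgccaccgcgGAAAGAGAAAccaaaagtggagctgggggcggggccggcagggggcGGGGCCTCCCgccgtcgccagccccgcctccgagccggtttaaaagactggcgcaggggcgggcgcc
CISH: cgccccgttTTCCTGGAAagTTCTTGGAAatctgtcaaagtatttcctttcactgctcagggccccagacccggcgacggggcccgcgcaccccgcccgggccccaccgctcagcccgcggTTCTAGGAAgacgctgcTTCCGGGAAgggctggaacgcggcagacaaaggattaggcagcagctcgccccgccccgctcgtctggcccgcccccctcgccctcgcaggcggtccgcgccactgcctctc

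The motifs searched, on both strands, were the STAT motif TTCNNNGAA, the wider STAT6 motif TTCNNNNGAA, the interferon regulatory factor motif GAAANNGAAA and the kappa B consensus. CISH held 4 matches to TTCNNNGAA: TTCCTGGAA at 241 to 233 bases before the start, TTCTTGGAA at 230 to 222, TTCTAGGAA at 129 to 121 and TTCCGGGAA at 112 to 104. At least 1 such match was present in 6.57% of the 35116 RefSeq promoters of this length. At least 4, a cut-off taken from the count in CISH, were present in 5 of them (0.0142%), CISH included. SOCS1 held 0 matches to TTCNNNGAA, 1 to the kappa B consensus (GGGGCCTCCC, 67 to 58 bases before the start) and 1 to GAAANNGAAA (GAAAGAGAAA, 113 to 104 bases before it). The kappa B consensus was present in 9.96% of promoters and GAAANNGAAA in 3.02%. TTCNNNNGAA, present in 5.38%, matched neither sequence, and no matches overlapped within either. The windows of SOCS4 and SOCS6 held none of the 4 motifs. SOCS3 had more than 1 entry, and neither window, chr17:78360926-78361175 nor chr17:78359668-78359917, held any of them. Bases outside these windows were not searched, so a motif elsewhere near these genes would not be seen. A match describes letters and not a bound site.

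SOCS1, which inhibits JAK kinases, stood at 6.20, 6.15, 6.12 and 6.21 on the Control arrays P6-A, P6-B, P8-A and P8-B. The IL13 arrays, in the same order, read 7.39, 7.34, 7.38 and 7.19. The level was higher with IL-13 in both passages, and the groups did not overlap. SOCS1 rose 2.22-fold with IL-13 (log2 change 1.15 ± 0.10, SE, n = 4 and 4, limma adjusted p = 1.70e-09). The rise was 1.19 within passage 6 and 1.12 within passage 8. It was number 6 of the 12994 genes when ordered by p in this comparison. With no background correction, and in the authors' deposited table, the log2 change was 0.66, and that with pretreatment, below, 0.71, both still called.

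TNF and IL-17 alone brought SOCS1 to nearly the same level, 7.42 on P6-A, 7.27 on P6-B and 7.49 on P8-B. It rose 2.35-fold over Control (log2 change 1.23 ± 0.11, limma adjusted p = 9.36e-11). IL-13 on top of the pretreatment gave 7.37, 7.58, 7.60 and 7.69, which overlaps the pretreated arrays. The log2 change was 0.16 ± 0.11 (95% confidence interval -0.06 to 0.37, limma adjusted p = 0.830), and SOCS1 was not called. With the antibody alone the Pre_Ab_only arrays read 7.36, 7.27, 7.50 and 7.54, a log2 difference of 0.01 from Pre_only (95% confidence interval -0.20 to 0.23).

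With the antibody and IL-13 together, SOCS1 reached its highest levels, 8.25, 8.22, 8.21 and 8.19. These 4 arrays lay above every other array, and their SD of 0.02 was the smallest of any group for this gene. Against Pre_Ab_only the rise was 1.74-fold (log2 change 0.80 ± 0.10, n = 4 and 4, limma adjusted p = 1.80e-06). Against Pre_IL13 it was 1.57-fold (0.65 ± 0.10, limma adjusted p = 0.000104), within passage 6 0.76 and within passage 8 0.55. That call was lost with median scaling (0.66, limma adjusted p = 0.0752) and with experiments A and B averaged (limma adjusted p = 0.0565). Against IL13 without pretreatment it was 1.86-fold (0.89 ± 0.10, limma adjusted p = 1.66e-08). In order of level, Pre_Ab_IL13 stood apart at the top and Control at the bottom, and each of Pre_IL13, Pre_Ab_only, Pre_only and IL13 overlapped its neighbour.

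**Figure D1:**
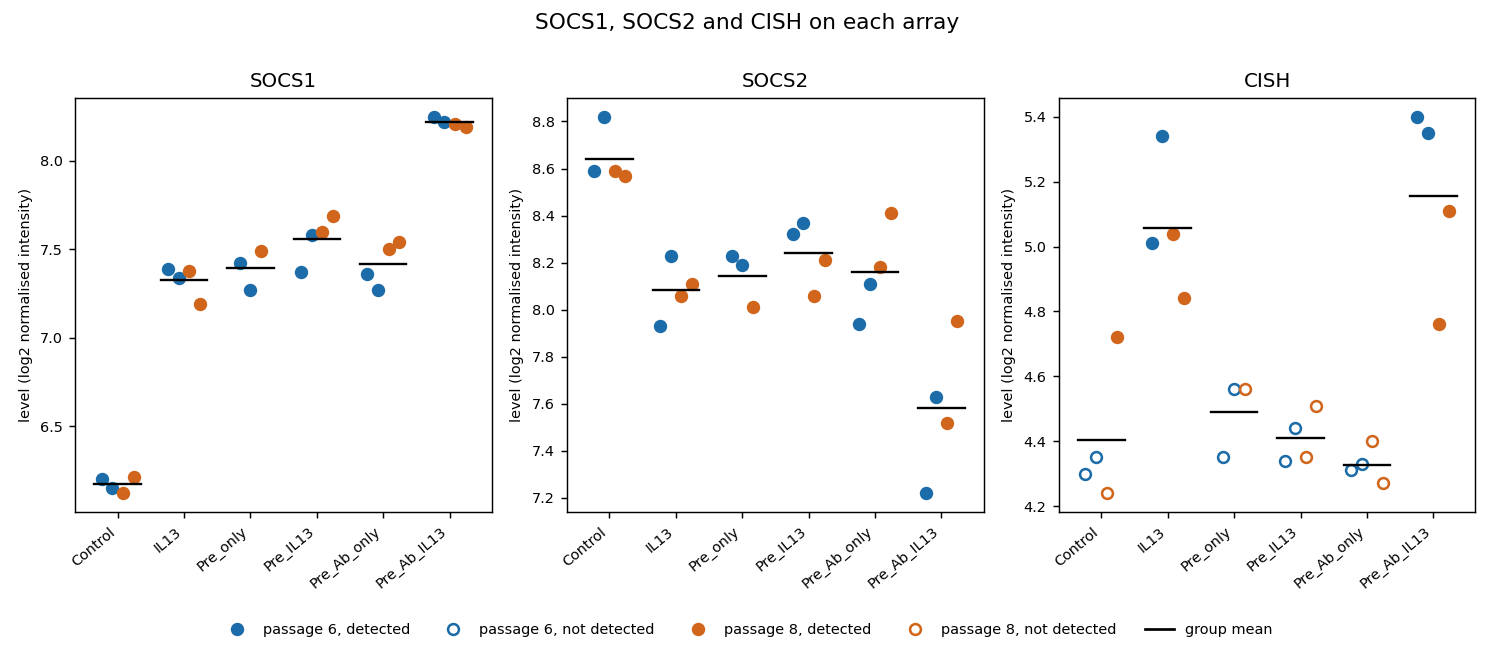
Level (log2 normalised intensity, vertical axis) of SOCS1, SOCS2 and CISH on each array of the 6 groups (horizontal axis); blue points are passage 6, orange points passage 8, open points arrays where the probe was not detected, and bars group means. SOCS1 lies between 6.12 and 6.21 in Control and between 8.19 and 8.25 in Pre_Ab_IL13, SOCS2 is highest in Control, and all CISH points of Pre_only, Pre_IL13 and Pre_Ab_only are open.

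CISH, which binds activated cytokine receptors and competes with STAT5, was near the detection limit. It was detected on 9 of 23 arrays: all 4 of IL13, all 4 of Pre_Ab_IL13 and 1 of Control. It thus passed the detection filter only through IL13 and Pre_Ab_IL13, the groups where it is high. Its p-values in comparisons with these groups, here and below, are therefore no independent support for a rise. The Control arrays read 4.30, 4.35, 4.24 and 4.72, and P8-B was the detected one. The IL13 arrays read 5.01, 5.34, 5.04 and 4.84, all above Control. CISH rose with IL-13 (fitted log2 change 0.66 ± 0.13, n = 4 and 4, limma adjusted p = 0.00218). With each undetected Control array put at the dimmest level that counted as detected on it, the fold was 1.32. The change was 0.85 within passage 6 and 0.46 within passage 8, where alone it was not called (limma adjusted p = 0.345), and the test of the difference between passages gave -0.40 ± 0.23 (limma adjusted p = 0.724). Without both passage 6 arrays of IL13, whose beads were the least even, the change was 0.56 and the call was lost (limma adjusted p = 0.108), as it was with A and B averaged (limma adjusted p = 0.062). With no background correction the change was 0.21 and still called.

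CISH was undetected on all 11 arrays of Pre_only, Pre_IL13 and Pre_Ab_only. Their levels ran from 4.35 to 4.56, from 4.34 to 4.51 and from 4.27 to 4.40, in that order. The Pre_Ab_IL13 arrays read 5.40, 5.35, 4.76 and 5.11 and lay above all of these. CISH was at least 1.44-fold higher than in Pre_Ab_only (fitted log2 change 0.83 ± 0.13, limma adjusted p = 8.73e-05) and at least 1.45-fold higher than in Pre_IL13 (0.74 ± 0.13, limma adjusted p = 0.000650). In IL13 it was at least 1.36-fold higher than in Pre_IL13 (limma adjusted p = 0.000192). In passage 8 alone the calls against Pre_Ab_only and Pre_IL13 were lost (limma adjusted p = 0.0748 and 0.179), the latter also with A and B averaged (limma adjusted p = 0.0501). With no background correction these changes were 0.26 and 0.23, both called. Each "at least" fold uses that same floor for undetected arrays. The 2 groups where CISH was detected on every array overlapped, as IL13 ran from 4.84 to 5.34.

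SOCS2, which limits growth hormone signalling through STAT5, moved the other way from SOCS1. Control arrays read 8.59, 8.82, 8.59 and 8.57, and IL13 arrays 7.93, 8.23, 8.06 and 8.11, with no overlap. SOCS2 fell 1.48-fold with IL-13 (log2 change -0.57 ± 0.13, n = 4 and 4, limma adjusted p = 0.00929). Within passage 6 the change was -0.63 and within passage 8 -0.50, neither called alone (limma adjusted p = 0.0628 and 0.0845), nor was it with A and B averaged (limma adjusted p = 0.167). The call was lost without Control P6-B, the highest Control array (-0.50, limma adjusted p = 0.0596), and without both passage 6 arrays of IL13 (-0.57, limma adjusted p = 0.0918).

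Pretreatment alone gave SOCS2 levels of 8.23, 8.19 and 8.01 on P6-A, P6-B and P8-B, 1.41-fold under Control (log2 change -0.50 ± 0.14, limma adjusted p = 0.00600). Without P8-B, the only Pre_only array of passage 8, the change was -0.41 and the call was lost (limma adjusted p = 0.0597). Pre_IL13 arrays read 8.32, 8.37, 8.06 and 8.21 and Pre_Ab_only arrays 7.94, 8.11, 8.18 and 8.41, both overlapping Pre_only. Pre_Ab_IL13 arrays were the lowest at 7.22, 7.63, 7.52 and 7.95. SOCS2 was 1.58-fold lower there than in Pre_IL13 (-0.66 ± 0.13, limma adjusted p = 0.00249). The change was -0.92 within passage 6 and -0.40 within passage 8, the latter not called alone (limma adjusted p = 0.163). Against Pre_Ab_only the log2 change was -0.58 ± 0.13 (limma adjusted p = 0.00574), though P8-B of Pre_Ab_IL13 reached into the Pre_Ab_only range, and without Pre_Ab_IL13 P6-A the call was lost (-0.46, limma adjusted p = 0.0542). Against IL13 it was -0.50 ± 0.13 (limma adjusted p = 0.00288), with 1 overlapping array, P8-B, and a value of -0.22 with median scaling. With median scaling the 4 other SOCS2 calls above were lost as well (log2 changes -0.75 to -0.63, limma adjusted p from 0.0525 to 0.342).

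Counted over the family, IL-13 without pretreatment called 3 of 8 members, SOCS1 and CISH higher and SOCS2 lower, where 1.87% of all tested genes were called. CISH was among the tested genes only through IL13 and Pre_Ab_IL13, where it is high, with 8 of its 9 detections there. Its place in these counts, and in the medians of the members below, is thus no support for a family response. Without IL13 P6-B, the array with the least even beads, 5 were called, with SOCS5 (-0.60) and SOCS7 (0.56) added. Arrays of the groups did not overlap for 4 of 8 members, beside 4.19% of genes. Pretreatment alone called SOCS1 and SOCS2, where 24.8% of genes were called, so that 2 of 8 is close to the background. The count was 1, SOCS1, without Pre_only P8-B, and 3 of 8 members did not overlap, beside 26.7% of genes. IL-13 after pretreatment called 0 of 8 members and 0.0308% of genes, and with limma 0 members and 833 genes had an unadjusted p under 0.05. IL-13 after pretreatment and antibody called the same 3 members (2.24% of genes), as did Pre_Ab_IL13 against Pre_IL13 (0.924%). In these comparisons 2 and 3 members did not overlap, beside 6.40% and 4.71% of genes. Pre_Ab_only against Pre_only called 0 members and 0 genes with limma, and 0 members and 659 genes had an unadjusted p under 0.05. The median absolute log2 change of the members was 0.46 with IL-13 alone, 0.13 with IL-13 after pretreatment and 0.35 with IL-13 after the antibody, beside 0.10, 0.10 and 0.09 over all genes. These comparisons share arrays: Control serves IL13 and Pre_only, and Pre_Ab_IL13 serves 3 of them.

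**Figure D2:**
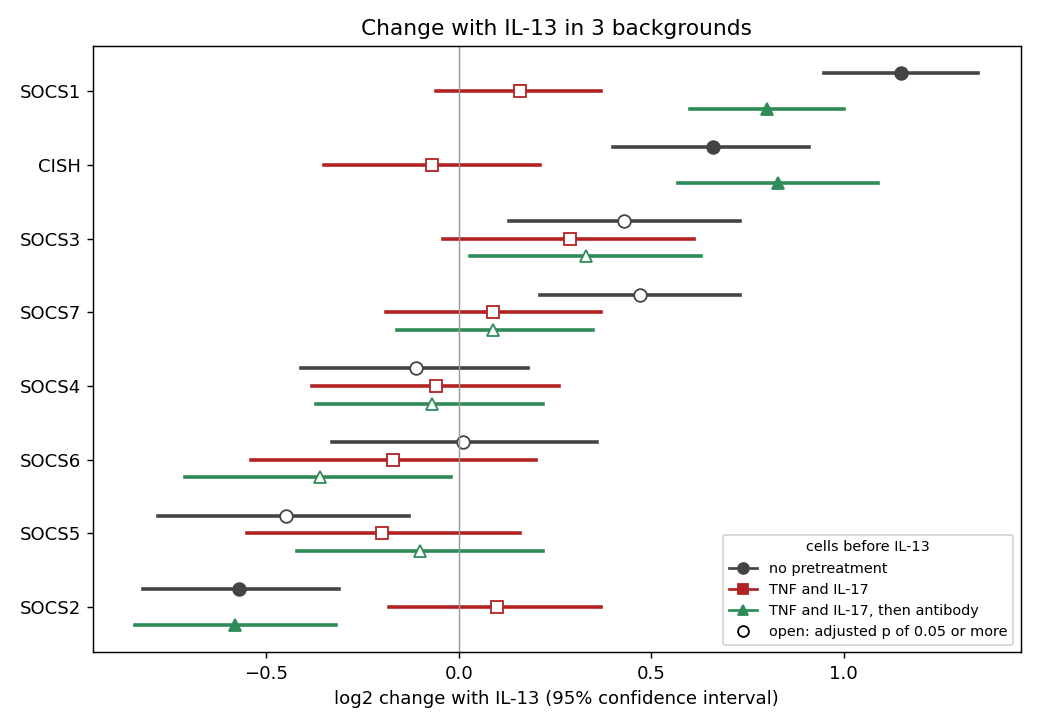
Log2 change with IL-13 (horizontal axis, bars are 95% confidence intervals) of the 8 members (vertical axis) in cells without pretreatment, after TNF and IL-17, and after TNF, IL-17 and antibody; filled symbols have an adjusted p under 0.05. SOCS1, CISH and SOCS2 have filled symbols without pretreatment (1.15, 0.66 and -0.57) and with the antibody (0.80, 0.83 and -0.58), and no symbol is filled after TNF and IL-17 alone, where CISH was undetected on every array.

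Whether the response to IL-13 itself differed between backgrounds was tested as a difference of responses. The SOCS1 response was smaller after pretreatment than without it by 1.00 on the log2 scale (-1.00 ± 0.14, limma adjusted p = 0.000342). The difference was -1.06 within passage 6 and -0.97 within passage 8. It was number 3 of all genes by p in this test, which called 0.300% of them, and it was not called with median scaling (-0.64, limma adjusted p = 0.308), with A and B averaged (limma adjusted p = 0.0775) or in passage 8 alone (limma adjusted p = 0.0799). With no background correction it was -0.55 and called. For SOCS2 the difference was 0.66 ± 0.18 and was not called (limma adjusted p = 0.193). Among the 16 alternatives besides leaving out single arrays, 1 called it (limma adjusted p = 0.0199). For CISH, which was undetected on every array of Pre_only and Pre_IL13 and on 3 of 4 of Control, no size of difference can be read. The CISH test was not called (limma adjusted p = 0.132). It was called without Control P8-B, the 1 Control array where CISH was detected (limma adjusted p = 0.0243). Among the same 16 alternatives, 1 called it too (limma adjusted p = 0.0107).

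Among pretreated cells the response to IL-13 was larger with the antibody by 0.64 ± 0.14 for SOCS1 (limma adjusted p = 0.0442), in a test that called 0.231% of genes, and it was 0.38 and not called with median scaling (limma adjusted p = 0.645). CISH was called too (limma adjusted p = 0.0238), but it was undetected on every array of 3 of the 4 groups in this test, so that its fitted difference gives no size. The difference for SOCS2 was -0.68 ± 0.18 and was not called (limma adjusted p = 0.206), but was -0.81 and called without Pre_Ab_IL13 P8-B (limma adjusted p = 0.0424). Of the 16 alternatives besides leaving out single arrays, 1 called it (limma adjusted p = 0.0167). The SOCS1 and CISH calls were close to the threshold: leaving out any 1 array kept the SOCS1 difference between 0.58 and 0.69, but SOCS1 was no longer called in 16 of 23 such fits and CISH in 9 of 23. With A and B averaged, or in passage 8 alone, neither was called. Of the 16 alternatives, 8 called SOCS1 (limma adjusted p up to 0.878) and 14 called CISH. Against cells without pretreatment, the response of antibody-treated cells differed on the log2 scale by -0.36 ± 0.14 for SOCS1 and -0.02 ± 0.18 for SOCS2. The SOCS1 responses started from unlike mean levels, 6.17 in Control and 7.42 in Pre_Ab_only, and a difference on an unlogged scale was not tested. For SOCS1 the 95% confidence interval was -0.64 to -0.08 and the limma adjusted p was 0.710. In that test limma called 0 members and 0.0693% of genes, and 2 members, SOCS1 and SOCS7, and 759 genes had an unadjusted p under 0.05.

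SOCS3, which inhibits JAKs bound to the IL-6 family receptor chain gp130, was measured by 2 kept probes, of which the brighter is given first. Control arrays read 4.73, 4.84, 4.98 and 4.91, IL13 arrays 5.11, 5.58, 5.29 and 5.18, and the groups did not overlap, which held for 4.19% of all genes. The log2 change was 0.43 ± 0.15 and was not called (limma adjusted p = 0.166). The highest levels were on the passage 6 arrays of Pre_Ab_IL13, 6.16 and 5.92, while those of passage 8 read 5.10 and 5.43. SOCS3 was called in 0 of the 8 comparisons between groups, with an unadjusted p under 0.05 in 3 of them, and every group overlapped its neighbour in the order of levels. Its dimmer probe, detected on 2 of 4 Control and 3 of 4 IL13 arrays, gave -0.03 ± 0.18 for IL-13.

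The level of IL6, a ligand that acts through gp130, was 9.66 ± 1.26 (SD, n = 4) in Control and 12.69 ± 0.11 (SD, n = 3) in Pre_only. SOCS3 read 5.52, 5.20 and 4.89 in Pre_only, against Control a log2 change of 0.29 ± 0.16 (limma adjusted p = 0.210). In passage 6 alone this change was 0.58 and was called (limma adjusted p = 0.0327), and in passage 8 it was -0.05. The difference between the passages was -0.63 ± 0.27 and was not called (limma adjusted p = 0.411).

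SOCS5, known for effects on epidermal growth factor receptor and IL-4 signalling, was highest in Control at 7.85, 8.29, 8.18 and 7.83. The Pre_only arrays read 7.80, 7.36 and 7.53, all below Control, a log2 change of -0.45 ± 0.17 that narrowly missed the threshold (limma adjusted p = 0.0544). With IL-13 alone the arrays read 7.28, 7.93, 7.57 and 7.56, a change of -0.45 ± 0.16 (limma adjusted p = 0.175). Its dimmer probe, detected on all 23 arrays, gave -0.70 ± 0.16 for pretreatment when each probe was tested on its own, and that was called (limma adjusted p = 0.00133). The mean of both probes gave -0.57 and was called (limma adjusted p = 0.00363).

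SOCS7, which binds insulin signalling adaptors, was highest in IL13 at 5.55, 4.98, 4.97 and 5.19. Control arrays read 4.97, 4.62, 4.71 and 4.52, with 2 of the 4 detected, so the highest of Control met the lowest of IL13, and the change was 0.47 ± 0.13 (limma adjusted p = 0.0501, not called). Against IL13, SOCS7 was lower by -0.37 ± 0.13 in Pre_IL13 (limma adjusted p = 0.0293) and by -0.40 ± 0.13 in Pre_Ab_IL13 (limma adjusted p = 0.0175), in comparisons that called 27.7% and 27.2% of genes. Both calls were lost without IL13 P6-A, its highest array, at -0.26 and -0.29, and without IL13 P8-B, at -0.34 and -0.37. The dimmer SOCS7 probe was detected on 4 of 23 arrays, 2 of Control and 2 of Pre_IL13, and on 0 of IL13, so no direction can be read from it. With the mean of both probes neither was called (-0.08 and -0.16).

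SOCS4, a relative of SOCS5, and SOCS6, which binds the receptor KIT and insulin signalling adaptors, showed no group that stood apart. SOCS4 levels ran from 6.81, on IL13 P6-A, to 7.83, and its group means from 7.40 to 7.51. SOCS6 levels ran from 4.57 to 5.64, its probe was detected on 21 of 23 arrays, and its 2 highest values were Pre_Ab_only P6-A and P6-B. With IL-13 the changes were -0.11 ± 0.14 for SOCS4 (95% confidence interval -0.41 to 0.18) and 0.01 ± 0.17 for SOCS6 (-0.33 to 0.36). Neither was called in any comparison between groups, and 1 of their limma tests had an unadjusted p under 0.05, SOCS6 in Pre_Ab_IL13 against Pre_Ab_only (-0.36 ± 0.17).

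**Figure D3:**
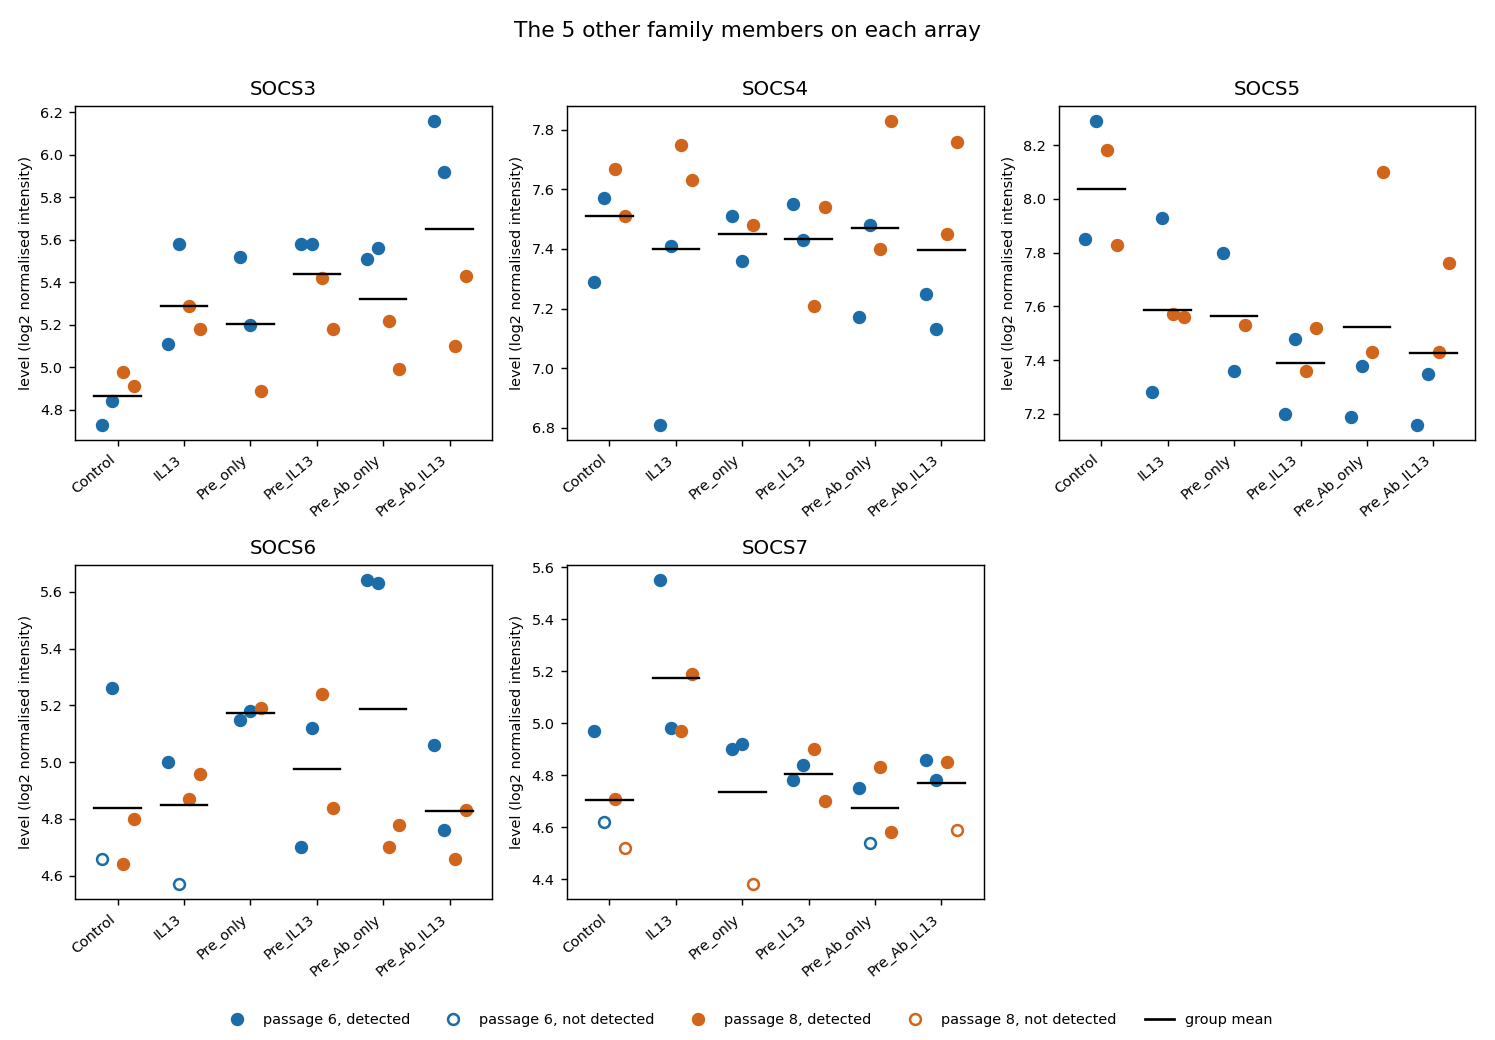
Level (log2 normalised intensity, vertical axis) of SOCS3, SOCS4, SOCS5, SOCS6 and SOCS7 on each array of the 6 groups (horizontal axis); colours, open points and bars as defined in the legend. SOCS5 is highest in Control (mean 8.04), SOCS7 in IL13 (mean 5.17), and the passage 6 arrays of SOCS3 in Pre_Ab_IL13 (6.16 and 5.92) lie above those of passage 8.

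Between the passages, with group in the model, SOCS3 was lower in passage 8 by -0.31 ± 0.09 (limma adjusted p = 0.00864) and SOCS4 was higher by 0.24 ± 0.09 (limma adjusted p = 0.0347). This comparison called 29.4% of all genes, so that 2 of 8 members is close to the background. SOCS4 was not called in 10 of 23 fits that left out 1 array. SOCS1 and SOCS2 differed between passages by 0.06 ± 0.06 and 0.02 ± 0.07. The effect of IL-13 was called as different between the passages for 0 of 8 members with limma, where 0.0231% of genes were called, and 0 members and 1026 genes had an unadjusted p under 0.05. The effect of pretreatment was called as different for 0 of 8, where 1.44% of genes were called, and 1 member, SOCS3, and 1310 genes had an unadjusted p under 0.05.

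For 5 members 2 probes were kept, and the brighter one stood for the gene. Both SOCS2 probes were detected on all 23 arrays and fell alike with IL-13, by -0.57 ± 0.13 and -0.60 ± 0.13, and with pretreatment, by -0.50 ± 0.14 and -0.41 ± 0.14. The SOCS2 probes also fell alike in Pre_Ab_IL13 against Pre_IL13 (-0.66 ± 0.13 and -0.65 ± 0.13). SOCS1 and CISH had 1 annotated probe each, so no second probe bears on them. The standard error over the beads of a probe had a median of 3.92% of its intensity for SOCS1, 4.03% for SOCS2 and 2.57% for CISH.

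**Figure D4:**
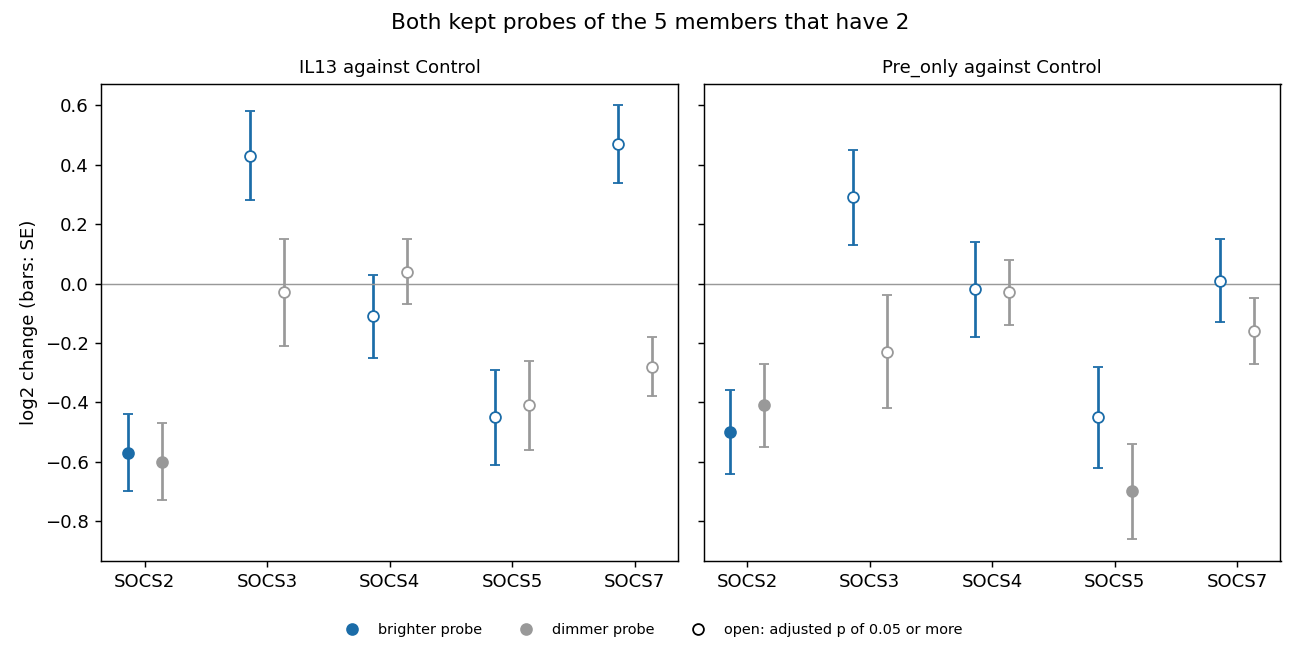
Log2 change (vertical axis, bars are SE) of the brighter and the dimmer kept probe of SOCS2, SOCS3, SOCS4, SOCS5 and SOCS7 (horizontal axis) for IL13 against Control and Pre_only against Control; filled symbols have an adjusted p under 0.05 with every probe tested on its own. The SOCS2 probes lie together at -0.57 and -0.60 with IL-13; the dimmer SOCS7 probe was undetected on every IL13 array and the dimmer SOCS4 probe was detected on 8 of 23 arrays.

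The genes most like SOCS1 over the 23 arrays, after each passage's mean was taken off, were CCL2 (Pearson's r = 0.949), a monocyte chemokine, LOXL3 (0.945), a lysyl oxidase, and SH2D4A (0.935). Those most like CISH were NFIL3 (0.884), a bZIP transcription factor, TMEM171 (0.866) and PPFIBP2 (0.866). SOCS2 was most like ACAD11 (0.880), TRIM55 (0.862) and MTSS1 (0.847), and SOCS7 most like ANK1 (0.828), PRKRA (0.784) and PLD6 (0.778). These values describe arrays that share groups, beadchips and normalisation. As the genes were picked for their likeness over the same arrays, the changes below add no support for it. The fitted log2 changes of CCL2 were 1.02 with IL-13, 1.32 with pretreatment and 0.10 with IL-13 after it. Those of NFIL3 were 0.92, -0.14 and -0.30.

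Upstream of the family, IL13RA2 had levels of 7.56 ± 0.43 (SD, n = 4) in Control, 8.59 ± 0.28 in IL13 and 11.40 ± 0.29 (n = 3) in Pre_only, and rose by 3.85 ± 0.15 with pretreatment (limma adjusted p = 1.43e-18). Of 23 receptor genes listed, 21 were tested. Pretreatment called 8 higher and 1 lower, among them IL13RA2 and TNFRSF1B (1.45 ± 0.14) higher and GHR (-0.73 ± 0.17), the growth hormone receptor, lower, where 24.8% of all genes were called. IL-13 alone called 4 higher and 0 lower: IL17RA (1.19 ± 0.15), LIFR (1.14 ± 0.14), a receptor for leukaemia inhibitory factor that signals with gp130, IL13RA2 (1.03 ± 0.14) and OSMR (0.49 ± 0.12), where 1.87% of all genes were called. The median receptor change was 0.17 with pretreatment and 0.05 with IL-13, beside -0.01 over all genes in both.

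Of the kinases and STATs that the family restrains, 8 of 11 listed were tested. With IL-13, 0 were called by limma in any of the 3 backgrounds and 0 had an unadjusted p under 0.05, and STAT6, which carries the IL-13 signal, had a log2 change of -0.18 ± 0.10 with IL-13 alone (limma adjusted p = 0.504). With pretreatment 1 was called, STAT4 (0.38 ± 0.12, limma adjusted p = 0.0133). The counts with pretreatment in the next 3 lists, 4 of 11, 2 of 9 and 4 of 15, stand beside the same 24.8% of all genes. Counts at an unadjusted p under 0.05 stand beside 1528 of 12994 genes with IL-13 alone, 833 with IL-13 after pretreatment and 1400 after antibody. Of 11 tested genes that restrain the route by other means, 0 were called with IL-13 alone by limma and 0 had an unadjusted p under 0.05, and pretreatment called 2 higher and 2 lower: the phosphatase PTPN2 (0.65 ± 0.15) and USP18 (0.43 ± 0.14) higher, the ubiquitin ligase CBLB (-0.71 ± 0.14) and the phosphatase PTPN1 (-0.44 ± 0.10) lower. All 9 ubiquitin ligase partners of the SOCS box were tested: IL-13 alone called 0 (0 at an unadjusted p under 0.05 in limma), and pretreatment called UBE2F (-0.58 ± 0.10), a conjugating enzyme for NEDD8, and ELOC (-0.28 ± 0.10), which encodes elongin C, lower. Of 15 tested genes for other SOCS box proteins, IL-13 alone called 0 (3 at an unadjusted p under 0.05 in limma). Pretreatment called ASB3 (0.50 ± 0.14) and ASB7 (0.49 ± 0.14) higher, and ASB5 (-1.04 ± 0.15) and WSB2 (-0.38 ± 0.13) lower. SPSB1 was higher in Pre_Ab_IL13 than in Pre_IL13 (0.51 ± 0.13, limma adjusted p = 0.0447).

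Of 18 tested genes known to be induced by STATs, other than the members, IL-13 alone called 5 higher and 0 lower (1.87% of all genes were called), IL-13 after pretreatment 1 and 0 (0.0308%), and IL-13 after antibody 4 and 0 (2.24%). This list, which holds CCL26 and CCL11, was chosen with earlier results of these data known. Its counts are thus no support for a wider response of such genes. Pretreatment called 7 higher and 4 lower (24.8%), among them the transcription factors IRF1 (1.48 ± 0.11) and CEBPD (1.44 ± 0.16) and the kinase PIM2 (1.00 ± 0.17) higher and NNMT (-0.93 ± 0.11) lower, with CCL26 (0.80 ± 0.22) and PIM1 (0.62 ± 0.14) also higher. CCL26, an eosinophil chemokine, stood at 5.51 ± 0.14 in Control and 10.53 ± 0.11 in IL13 (SD, n = 4 each), and was the 1 called after pretreatment (2.55 ± 0.22), where the log2 change of SOCS1, not called, was 0.16 and CISH was undetected on every array. PIM1, a kinase gene induced by STATs, rose by 1.04 ± 0.13 with IL-13 and by 0.84 ± 0.13 with IL-13 after antibody. Its response was smaller after pretreatment (-0.85 ± 0.19, limma adjusted p = 0.0434), as were those of CCL11 (-2.67 ± 0.42) and CCL26 (-2.47 ± 0.29). The effect of IL-13 alone on CCL11 was smaller in passage 8 than in passage 6 (-2.06 ± 0.24, limma adjusted p = 2.17e-05). For CCL26 that difference between passages was -0.02 ± 0.25 and was not called. Of the adaptors listed, IRS2, an insulin receptor substrate that SOCS proteins bind, fell by -0.64 ± 0.14 with IL-13 (limma adjusted p = 0.00689), the 1 called of 11 tested, and with pretreatment 1 was called higher and 4 lower (24.8% of all genes). The 8 tested ligands of the route had 1 called with IL-13, IL6 (1.37 ± 0.29), and 3 with pretreatment, IL6, IL15 (1.25 ± 0.13) and LIF (0.69 ± 0.17).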

How the data were processed

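The authors deposited a mean bead intensity and a detection p-value per probe and array. The submitters' processing notes name GenomeStudio 2011.1. Array medians of intensity ran from 93.4 to 106, and no normalisation between arrays is seen in the values. Per the file headers, the deposited per-array files also give the bead count and the bead standard error, used here as a score of evenness. The authors' deposited table of log2 values has nearly equal sorted columns. How it was normalised is not given in the sources used here, and it served as an alternative.

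Intensities were background-corrected and quantile-normalised with neqc of limma 3.58.1 in R 4.3.3 (offset 16). Incomplete probes (14) were dropped. For each gene the kept probe with the highest mean level was used. Group and passage were fitted for 12994 genes over 23 arrays (lmFit, eBayes with trend, 16 residual degrees of freedom). Differences of effects between passages used a mean for each group and passage. In 14 comparisons p-values were adjusted over all genes by Benjamini-Hochberg, and genes under 0.05 were called. Errors are SE of the model unless SD is named. The number of arrays limits the precision. Named genes were all 8 members, up to 4 called genes of each pathway list per comparison, IL13RA2, CCL26, STAT6, and the 3 genes most like each called member. Members and lists were chosen with earlier results of these data known. The fit was tested on simulated data. Alternatives changed background, scaling, filter, probes, passage term, replicate block, replicate unit, arrays, weights and adjustment.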

Additional observations from a re-analysis of the deposited data

Results flagged for a closer look

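Across 40 member and group combinations of 4 arrays, 1 array lay far from the rest of its group, where chance gives about 1 in 20: SOCS2 on Control P6-B stood at 8.82, against 8.59 for the next array. Without it the fall of SOCS2 with IL-13 was -0.50 and was not called.

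The response of SOCS1 to IL-13 differed between pretreated and other cells by -1.00 in the test of that difference. With the antibody, the responses of pretreated cells to IL-13 differed from those without it by 0.64 for SOCS1 and, as fitted, by 0.89 for CISH. CISH was undetected on every array of 3 of the 4 groups behind that value, which gives no size. Leaving out 1 array ended the SOCS1 call in 16 and the CISH call in 9 of 23 fits.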

How the results depend on the processing

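Numbers of called members are given in the order of the settings. The rise of SOCS1 with IL-13 and with pretreatment, and in Pre_Ab_IL13 against Pre_Ab_only and against IL13, was called under all 16 alternatives run besides leaving out single arrays. Median scaling called 1 in Pre_only against Control, 1 in Pre_Ab_IL13 against Pre_IL13, 0 for the difference that pretreatment made to the IL-13 response and 1 for the difference that the antibody made. For the latter, 1 was also called with no detection filter, with every probe on its own, with no passage term and in passage 6 alone, and 0 in passage 8 alone and with experiments A and B averaged. Averaging A and B called 1 in IL13 against Control, 0 in Pre_Ab_IL13 against Pre_IL13, 1 in Pre_IL13 against IL13, 0 for the difference by pretreatment and 1 between passages. Passage 8 alone called 1 in IL13 against Control, 1 in Pre_Ab_IL13 against Pre_IL13, 1 in Pre_Ab_IL13 against IL13 and 0 for the difference by pretreatment. For Pre_IL13 against IL13, 1 was called with no passage term, with only the arrays compared, in passage 6 alone, with the 12 comparisons adjusted together and without both passage 6 arrays of IL13. Adjusting together called 3 for the difference by pretreatment and 1 between passages, as did, between passages, the mean of the probes, array weights and leaving out both passage 6 arrays of IL13. That last setting, chosen after seeing the data, called 1 in IL13 against Control. The causes were not tested.

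Deviations of arrays with the same passage and letter correlated with r from -0.26 to 0.34 over pairs of groups. The median was 0.01 in passage 6 and 0 in passage 8. With so few arrays per group and passage, these values cannot tell whether such arrays share an experiment. With passage and experiment as the replicate block, 4 members were called in IL13 against Control, 3 in Pre_only against Control, 3 in each of Pre_Ab_IL13 against Pre_Ab_only, Pre_IL13 and IL13, 2 in Pre_IL13 against IL13, 1 for the difference by pretreatment, 1 for that by the antibody (CISH), and 0 in the other comparisons of groups. The comparisons of passages were not fitted in this setting.

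Leaving out 1 array at a time gave 2 to 5 called members in IL13 against Control, 1 to 3 in Pre_only against Control, 2 to 3 in Pre_Ab_IL13 against Pre_Ab_only, 3 in every fit of Pre_Ab_IL13 against Pre_IL13, 1 to 2 in Pre_IL13 against IL13, 2 to 4 in Pre_Ab_IL13 against IL13, 1 to 2 for the difference by pretreatment, 0 to 2 for that by the antibody, 1 to 2 between passages, and 0 elsewhere. No called change of a member turned its sign. CISH, SOCS3, SOCS6 and SOCS7 lie near the detection limit, which bounds what their folds can show.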
